A study of Mus musculus with 5 samples.

Results

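The Golgi glycosyltransferases are the enzymes that build sugar chains on secreted and membrane proteins and on lipids. Members were the probe sets whose single platform symbol begins with Galnt, Galntl, B4galt, B4galnt, B3galt, B3galnt, B3gnt, St3gal, St6gal, St6galnac, St8sia, Gcnt, Mgat or Fut followed by a number. That gave 91 of the 34760 probe sets, or 87 genes, and 1 further row was left out because it carried several symbols. Of the 87 genes, 66 passed the filter on low values and entered the fit over 14979 genes. The enzymes were singled out because B4galnt2 and Galntl5 were among the large rises of this same comparison, so the values of those 2 genes are a description and carry no test. The other members came in by name.

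Glycosyltransferases take a sugar from its nucleotide donor and add it to a growing chain as the cargo passes through the Golgi. Mucin-type O-glycans start with GalNAc on serine or threonine, N-glycans are trimmed and then branched with GlcNAc, and glycolipids grow from lactosylceramide. All these kinds are then extended with galactose, GlcNAc or GalNAc and capped with sialic acid or fucose. On lung epithelium such chains form the mucin layer and the cell's sugar coat, to which lectins and respiratory viruses bind.

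The arrays came from MLE-15, a mouse lung epithelial line from tumours of mice that carried the SV40 large tumour antigen under the human surfactant protein C promoter. There were 3 arrays of cells given a lentiviral shRNA against Grhl2, a Grainyhead-like transcription factor of epithelia, and 2 arrays of cells given a non-silencing shRNA. Each array was 1 independent transduction, both vectors also carried GFP, and all cells were selected with puromycin. A single hairpin and a single parental line stand behind all the values, and the line's SV40 antigen was present in both groups. The study asked which genes Grhl2 regulates in these cells.

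Grhl2 (probe set 10423770) had RMA log2 values of 7.43, 7.43 and 7.60 with the Grhl2 shRNA, against 7.77 and 7.68 with the control shRNA. The groups did not overlap, but the difference of −0.24 (SE 0.065) missed the threshold (limma adjusted p = 0.082). It passed without Grhl2 shRNA replicate 3 (limma adjusted p = 0.047), but not without replicate 1 or 2 (limma adjusted p = 0.17 and 0.20). Leaving out control replicate 1 or 2 gave differences of −0.19 and −0.28. Markers of the line were present: Epcam averaged 10.0 with the Grhl2 shRNA and 9.98 with the control, and 11 of 12 distal lung epithelial markers passed the filter, all but Lamp3. Of those 11, 1 rose, 1 fell and 9 did not pass the test. Over all genes tested, 6.38% passed it. Napsa, an aspartic protease that processes surfactant protein B, rose by 0.36 (SE 0.045, limma adjusted p = 0.010), and Sftpd, surfactant protein D, fell by 0.33 (SE 0.055, limma adjusted p = 0.021). Array medians lay between 5.29 and 5.32. All values below are RMA log2 signals, differences are Grhl2 shRNA minus control on the log2 scale, and a gene is called where its limma adjusted p over all 14979 genes is under 0.05. A level compares arrays for 1 probe set and does not rank enzymes against each other, and in these cultures fewer cells that express a gene and less RNA per cell cannot be told apart.

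The promoter windows of the members in the fit with the largest absolute differences are shown because the study concerns a DNA-binding factor. The windows are RefSeq's for GRCm38.p6 and run from 250 bases before to 50 after a gene's start. Capitals mark the Grainyhead letters AACCGGTT and AACNGGTT, the TATA letters TATAAA and the GC box GGGCGG, searched on both strands. The consensus AACCGGTT lies within the family AACNGGTT. The coordinates belong to the promoter table, since no source used here names the build of the arrays.
B4galnt2, chr11:95914822-95915121, minus strand: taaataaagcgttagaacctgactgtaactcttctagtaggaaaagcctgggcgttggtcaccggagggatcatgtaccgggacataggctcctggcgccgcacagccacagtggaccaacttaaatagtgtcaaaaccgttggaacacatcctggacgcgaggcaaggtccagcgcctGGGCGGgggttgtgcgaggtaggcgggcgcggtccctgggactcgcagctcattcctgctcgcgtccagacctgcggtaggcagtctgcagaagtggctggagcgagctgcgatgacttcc
Galntl5, chr5:25181230-25181529, plus strand: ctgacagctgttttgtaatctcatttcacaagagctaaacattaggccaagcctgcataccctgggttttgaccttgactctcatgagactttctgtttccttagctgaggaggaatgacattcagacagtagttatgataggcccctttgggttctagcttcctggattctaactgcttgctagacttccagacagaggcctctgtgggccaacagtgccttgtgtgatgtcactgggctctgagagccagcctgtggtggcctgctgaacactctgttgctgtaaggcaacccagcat
B3gnt5, chr16:19759984-19760283, plus strand: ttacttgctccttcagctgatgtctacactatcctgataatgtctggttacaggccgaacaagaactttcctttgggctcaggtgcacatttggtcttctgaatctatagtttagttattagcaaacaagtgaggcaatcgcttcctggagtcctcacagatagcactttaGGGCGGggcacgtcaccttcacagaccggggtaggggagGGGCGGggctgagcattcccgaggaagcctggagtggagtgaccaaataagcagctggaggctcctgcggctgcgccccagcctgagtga
St8sia6, chr2:13793471-13793770, minus strand: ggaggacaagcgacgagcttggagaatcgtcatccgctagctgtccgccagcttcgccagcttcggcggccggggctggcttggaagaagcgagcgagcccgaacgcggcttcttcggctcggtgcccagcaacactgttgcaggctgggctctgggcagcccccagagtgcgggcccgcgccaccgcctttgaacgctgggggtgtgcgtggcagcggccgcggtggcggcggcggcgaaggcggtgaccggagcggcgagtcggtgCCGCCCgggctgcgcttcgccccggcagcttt
Gcnt1, chr19:17339456-17339755, minus strand: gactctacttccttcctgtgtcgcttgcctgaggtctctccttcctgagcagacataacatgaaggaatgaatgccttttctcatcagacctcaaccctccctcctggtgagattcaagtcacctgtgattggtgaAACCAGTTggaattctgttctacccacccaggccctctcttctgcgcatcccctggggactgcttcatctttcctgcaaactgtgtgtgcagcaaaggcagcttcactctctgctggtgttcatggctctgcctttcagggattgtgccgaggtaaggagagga

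The window of Gcnt1 is shown as the only member window with AACNGGTT, read there on the opposite strand as AACCAGTT and beginning at position −114 from the start. Windows were found for 64 of the 87 member genes, 90 windows in all. None of the 90 held AACCGGTT, which stood in 0.15% of all 32851 windows, and 1.11% held AACNGGTT, against 2.09% of all windows. The GC box stood in 52.2% of member windows, against 35.66% of all windows, and TATAAA in 3.33% against 13.62%. B4galnt2, B3gnt5 and St8sia6 each have a GC box in their windows, and Galntl5 has none of the letters searched. The Galntl5 window also holds 0 CG pairs, against 21 in that of B4galnt2 and 39 in that of St8sia6, with a median of 17.5 over member windows and 7 over all windows. These matches describe letters in short windows and say nothing of binding elsewhere.

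B4galnt2 (10390196) had the largest difference of the family. The enzyme adds GalNAc next to a terminal sialic acid and makes the Sda blood group antigen, best known on mouse gut epithelium. Its values were 8.45, 8.50 and 8.49 with the Grhl2 shRNA, against 7.47 and 7.29 with the control. All Grhl2 shRNA arrays were high and lay close together, and the control arrays were about a log2 unit lower. The means were 8.48 ± 0.03 (SD, n = 3) with the Grhl2 shRNA and 7.38 ± 0.12 (SD, n = 2) with the control, a 2.14-fold higher signal. The difference was 1.10 over all arrays. Leaving out control replicate 1 gave 1.18, and leaving out control replicate 2 gave 1.01.

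Galntl5 (10520277), a relative of the enzymes that start mucin-type O-glycans and known in mouse from sperm, had values of 5.61, 5.86 and 5.87 with the Grhl2 shRNA. The control arrays gave 4.89 and 4.76. The groups did not overlap, and Grhl2 shRNA replicate 1 was the lowest of its group. The means were 5.78 ± 0.15 (SD, n = 3) with the Grhl2 shRNA and 4.83 ± 0.10 (SD, n = 2) with the control, a difference of 0.95 or 1.93-fold. That control mean was a dim signal, above the filter at 4.22 but below the array medians of 5.29 to 5.32.

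Neighbouring genes on GRCm38.p6 are given beside B4galnt2 and Galntl5. These 2 were chosen as large rises, so a smaller difference in a neighbour carries no weight. The protein-coding genes beside B4galnt2, Gngt2 and Igf2bp1, were at −0.04 and −0.08 (limma adjusted p = 0.77 and 0.40). Beside Galntl5, Prkag2 was at 0.22 (limma adjusted p = 0.067) and Galnt11 (10520288), itself a member that starts O-glycans, at −0.03 (SE 0.064, limma adjusted p = 0.83). Galnt11 values of 7.54, 7.35 and 7.44 with the Grhl2 shRNA and 7.51 and 7.44 with the control overlapped. The genes 2 places from B4galnt2, Abi3 and Gip, were at −0.17 and 0.01 (limma adjusted p = 0.078 and 0.96). Those 2 places from Galntl5, Rheb and Kmt2c, were at 0.06 and −0.12 (limma adjusted p = 0.49 and 0.43).

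Markers of the tissues in which these 2 genes are best known were read beside them. Of 6 gut epithelial markers, 5 passed the filter, and 2 of those rose. Calls higher made up 2.86% of all genes tested. Lgr5, a receptor of intestinal stem cells, had values of 4.86, 5.10 and 5.02 with the Grhl2 shRNA, against 4.11 and 4.39 with the control, a rise of 0.74 (SE 0.099, limma adjusted p = 0.012). The control mean of Lgr5, 4.25, lay close to the filter at 4.22. Cdx2, the master transcription factor of intestine, was at 7.66 ± 0.03 (SD, n = 3) with the Grhl2 shRNA and 7.37 ± 0.01 (SD, n = 2) with the control, a rise of 0.28 (limma adjusted p = 0.016). Vil1, Cdx1 and Tff3 did not pass, at −0.09, 0.02 and 0.09, and Fabp2 was under the filter at 3.57 with the Grhl2 shRNA and 3.25 with the control. The summed linear signal of all 6 was 374 to 387 with the Grhl2 shRNA and 324 to 329 with the control. Cdx2, the brightest of the 6, weighed most in that sum. The part of these markers in the B4galnt2 difference was not tested. Of 8 germ cell markers, 3 passed the filter and none was called, and their summed linear signal was 139 to 146 with the Grhl2 shRNA and 140 to 146 with the control.

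**Figure D1:**
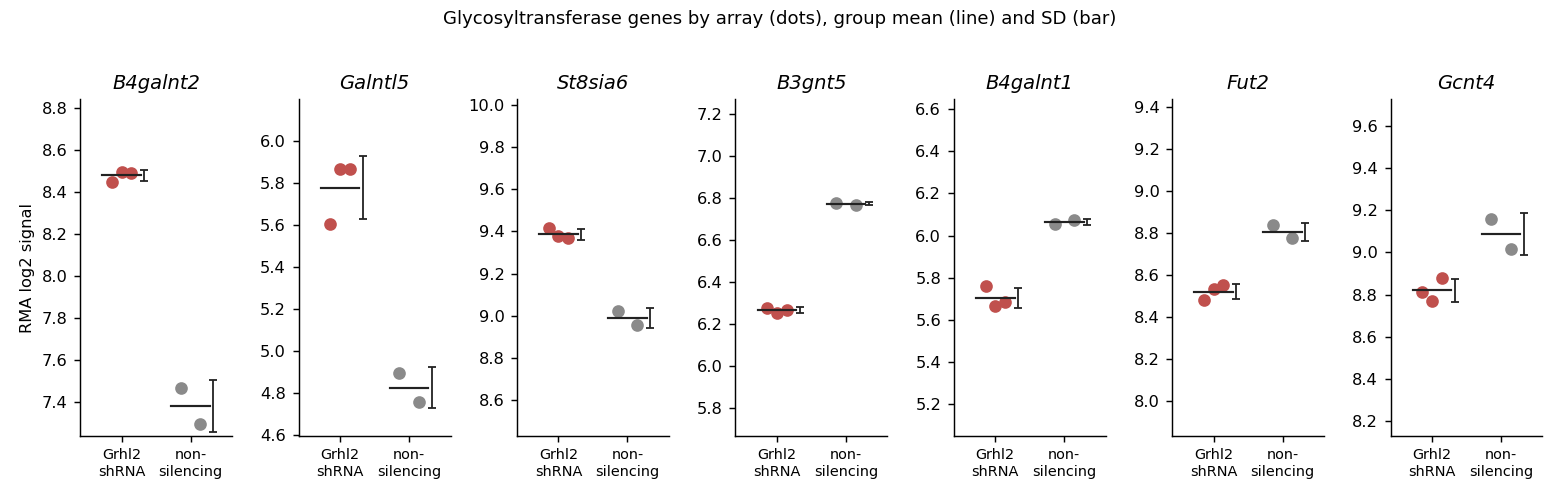
RMA log2 signal of 7 glycosyltransferase genes, with a dot per array, a line at each group mean and a bar for the SD. The 3 Grhl2 shRNA arrays stand left of the 2 non-silencing arrays, and each panel spans the same height on the log2 scale. The groups overlap in no panel, which follows from picking genes with large rises or calls. Of all genes tested, 41.5% had groups without overlap. B4galnt2 and Galntl5 prompted the choice of the family, and the other 5 genes are those called.

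Apart from B4galnt2 and Galntl5, 64 members were tested, of which 1 rose, 4 fell and 59 did not pass. That is 7.81% of the 64, against 6.38% of all genes tested (2.86% higher and 3.52% lower), so the family's share of calls was near the background. The median difference of the 64 was 0.004, against 0.002 over all genes. An unadjusted limma p under 0.05 was found for 21 of the 64 and for 3456 of all 14979 genes, the background for such counts below. The groups did not overlap in 30 of the 64, or 46.9%, against 41.5% of all genes tested. With 3 against 2 arrays the calls depended on single arrays: without control replicate 2, B3gnt5 alone was called, without control replicate 1 B3gnt5 and St8sia6, and without Grhl2 shRNA replicate 2 these together with B4galnt1.

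**Figure D2:**
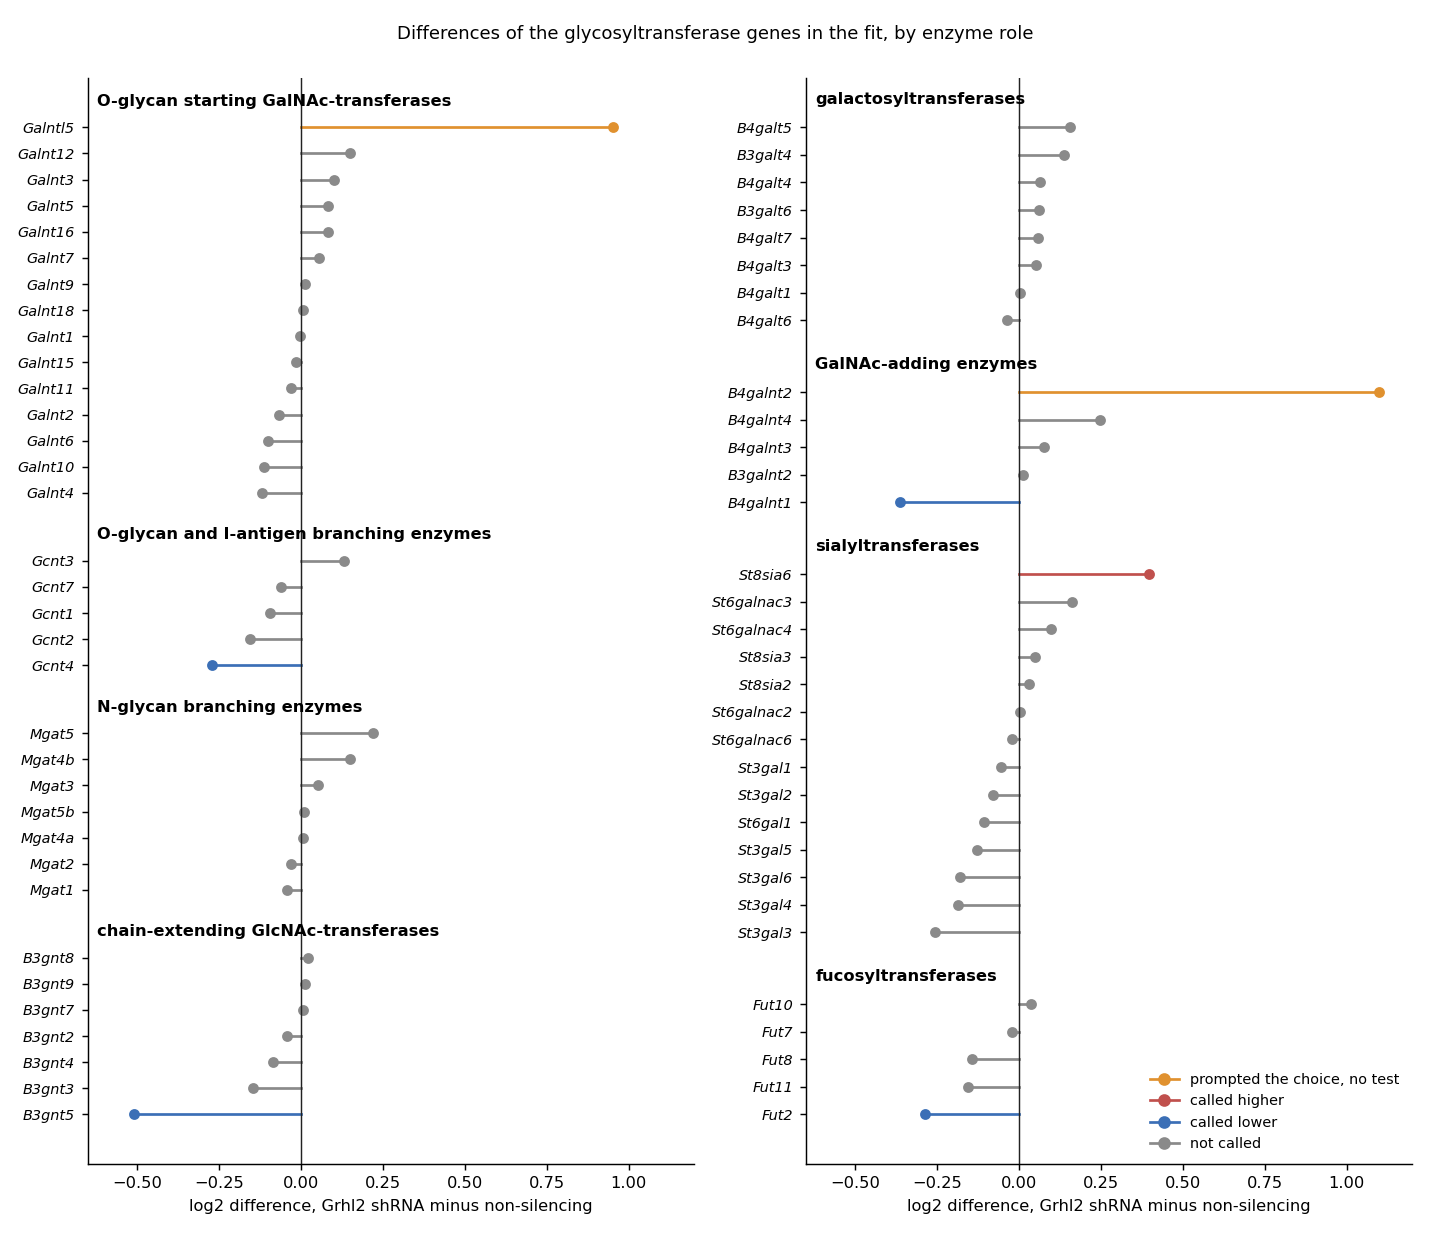
Log2 difference, Grhl2 shRNA minus non-silencing, for each of the 66 genes in the fit, grouped by enzyme role and ordered within a role. Of the 66, 56 lie within 0.2 of 0. B4galnt2 (1.10) and Galntl5 (0.95), drawn in orange without a test, stand far to the right, and B3gnt5 (−0.51) lies farthest to the left.

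The enzymes that start mucin-type O-glycans had small differences. By name this class had 19 genes, of which 15 were in the fit. Apart from Galntl5, a relative placed here by its name alone, none of the 14 was called by limma, with 2 at an unadjusted p under 0.05. Their differences ran from −0.12 for Galnt4 (10366038) to 0.15 for Galnt12 (10504763), with a median of 0.002. Galnt12 values were 7.22, 7.29 and 7.22 with the Grhl2 shRNA, against 7.05 and 7.13 with the control, which did not overlap (SE 0.048, limma adjusted p = 0.12). Galnt4, Galnt10 and Galnt12 all prefer peptides that already carry GalNAc. Galnt4 was at −0.12 (limma adjusted p = 0.20) and Galnt10 (10376269) at −0.11 (limma adjusted p = 0.26), so the signs of these 3 genes were mixed. Galnt7 (10578771) was at 0.06 (limma adjusted p = 0.51). The widely expressed Galnt1 (10454310) and Galnt2 (10576417) were at −0.001 and −0.07, with 95% confidence intervals of −0.10 to 0.10 and −0.17 to 0.03. Galnt13, Galnt14, Galnt17 and Galntl6 were under the filter. Galntl6 had 3 probe sets, all under the filter, and they did not share a sign, at −0.02, 0.09 and −0.07.

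The next step of O-glycan growth adds branches through the Gcnt enzymes, of which all 5 genes were in the fit. Gcnt4 (10406777), which makes the core branch of O-glycans, fell by 0.27 (SE 0.058, limma adjusted p = 0.044). Its values were 8.81, 8.77 and 8.88 with the Grhl2 shRNA, against 9.16 and 9.02 with the control. The groups were separate, but the gap between their nearest arrays was as wide as the distance between the control arrays, and the call was lost whichever array was left out (limma adjusted p 0.063 to 0.20). Gcnt2 (10404702), the enzyme of the I blood group antigen, was at −0.16 (limma adjusted p = 0.18), Gcnt1 (10466521) at −0.09 (limma adjusted p = 0.45) and Gcnt7 at −0.06 (limma adjusted p = 0.73). Gcnt3 (10594758), the branching enzyme of mucin-secreting epithelium, was at 0.13 (limma adjusted p = 0.12).

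N-glycan branching enzymes gave no call by limma among the 7 of 11 genes in the fit, with 2 at an unadjusted p under 0.05. Mgat5 (10349404), which adds the branch favoured by galectins, had values of 8.53, 8.53 and 8.65 with the Grhl2 shRNA, against 8.38 and 8.32 with the control. Every Grhl2 shRNA value was above both control values, and the difference of 0.22 (SE 0.053) missed the threshold at a limma adjusted p of 0.060. Mgat4b (10375713), which adds another antenna, was at 0.15 (limma adjusted p = 0.074). The enzymes that open the pathway, Mgat1 (10375537) and Mgat2 (10396074), were at −0.04 and −0.03 (limma adjusted p = 0.62 and 0.73). Mgat3 (10425354), the enzyme of the bisecting GlcNAc, was at 0.05 (limma adjusted p = 0.52), and Mgat4c, Mgat4d, Mgat4e and Mgat4f were under the filter.

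B3gnt5 (10434291) had the largest fall of the family. It encodes the enzyme that adds GlcNAc to lactosylceramide and so starts the lacto-series glycolipids. Its values were 6.28, 6.25 and 6.27 with the Grhl2 shRNA, against 6.78 and 6.77 with the control. Arrays of a group differed by far less than the groups did, and the mean was 6.27 ± 0.01 (SD, n = 3) with the Grhl2 shRNA and 6.77 ± 0.01 (SD, n = 2) with the control. The fall was 0.51 (SE 0.039, limma adjusted p = 0.0036), and B3gnt5 was called under every alternative setting tried, with limma adjusted p of 0.00017 to 0.040. Klhl24, a gene 2 places along the chromosome, fell by 0.28 (SE 0.042, limma adjusted p = 0.017). Olfr171, Lamp3 and Klhl6, the other genes within 2 places, were not in the fit and carry no test. The other B3gnt enzymes of the fit did not pass: B3gnt3 (10579602), which extends O-glycans, was at −0.14 (limma adjusted p = 0.094), and B3gnt2 (10384656), the main enzyme of poly-lactosamine chains, at −0.04 (limma adjusted p = 0.70). B3gnt4, B3gnt7, B3gnt8 and B3gnt9 lay between −0.08 and 0.02, and B3gnt6 was under the filter.

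Other enzymes of the glycolipid route were read beside B3gnt5, a grouping made with their values known. B4galnt1 (10366848), which adds GalNAc to simple gangliosides and opens the path to complex ones, fell by 0.36 (SE 0.046, limma adjusted p = 0.010). Its values were 5.76, 5.67 and 5.68 with the Grhl2 shRNA, against 6.05 and 6.07 with the control, without overlap. Leaving out control replicate 1 or 2 gave B4galnt1 differences of −0.37 and −0.35. The B4galnt1 call was lost with no moderation and with the replicate number as a block. St3gal5 (10539080), which makes the first ganglioside from lactosylceramide, was at 10.14, 10.14 and 10.15 with the Grhl2 shRNA, against 10.24 and 10.30 with the control. That difference of −0.13 did not pass (limma adjusted p = 0.13). The lactosylceramide synthases B4galt5 (10489891) and B4galt6 (10457733) were at 0.16 and −0.04 (limma adjusted p = 0.26 and 0.67). B3galt4 (10450059), which adds galactose to the product of B4galnt1, was at 0.14 (limma adjusted p = 0.23), and Ugcg, which makes glucosylceramide ahead of them all, at 0.14 (limma adjusted p = 0.16).

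Among the GalNAc-adding enzymes, B4galnt1 and B4galnt2 thus had differences of opposite sign. B4galnt4 (10558773), which caps GlcNAc with GalNAc on some glycoproteins, had values of 6.00, 5.92 and 5.83 with the Grhl2 shRNA, against 5.70 and 5.65 with the control. The groups did not overlap, and the difference of 0.25 (SE 0.057) just missed the threshold (limma adjusted p = 0.053). B4galnt3 (10547471), of the same activity, was at 0.08 (limma adjusted p = 0.50), and B3galnt2 (10403664), which acts on the dystroglycan sugar chain, at 0.01 (limma adjusted p = 0.92). B3galnt1 was under the filter.

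Galactosyltransferases gave no call by limma in the 8 of 11 genes in the fit, and 0 had an unadjusted p under 0.05. Of the 8, 7 had values above 0, up to 0.16 for B4galt5, and 1 was below 0, against 49.1% of all genes tested. B4galt1 (10512129), which builds lactosamine on most glycoproteins, was at 9.83, 9.88 and 9.95 with the Grhl2 shRNA, against 9.89 and 9.87 with the control. The groups overlapped, and the difference was 0.004, with a 95% confidence interval of −0.11 to 0.12. B4galt7 (10405495) and B3galt6 (10519234), which build the linker of glycosaminoglycans, were both at 0.06 (limma adjusted p = 0.59 for each). B3galt5 (10437191), the enzyme of type I chains in epithelia, was under the filter, at 4.06, 4.01 and 3.92 with the Grhl2 shRNA and 3.62 and 3.53 with the control. All Grhl2 shRNA values of this dim probe set were above both control values, a difference of 0.42, and with no filter its limma adjusted p was 0.026.

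Sialyltransferases cap chains, and 14 of 20 genes were in the fit. St8sia6 (10480238), which adds a sialic acid to another sialic acid and in mouse makes ligands for an inhibitory Siglec, was the member that rose. Its values were 9.42, 9.38 and 9.37 with the Grhl2 shRNA, against 9.02 and 8.96 with the control. The groups were well apart, and the rise was 0.40 (SE 0.044, limma adjusted p = 0.0068), a 1.32-fold higher signal. It missed the threshold without control replicate 2 (limma adjusted p = 0.063). St8sia2 and St8sia3 were at 0.03 and 0.05 (limma adjusted p = 0.79 and 0.71), and St8sia1, St8sia4 and St8sia5 were under the filter. Of its neighbours on the chromosome, Vim was at −0.23 (limma adjusted p = 0.13) and Hacd1 at 0.02 (limma adjusted p = 0.90).

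The 6 St3gal genes, which add sialic acid to galactose, all had values below 0, but none was called by limma. An unadjusted limma p under 0.05 was found for 4 of the 6, against 3456 of all 14979 genes. The 6 are set together here after their values were seen. The median was −0.15, with St3gal3 lowest at −0.25 and St3gal1 highest at −0.05, and each of the 6 had separate groups on its brightest probe set. Among all genes tested, 20.5% were lower without overlap. St3gal6 (10440099) had values of 8.18, 8.15 and 8.17 with the Grhl2 shRNA, against 8.37 and 8.32 with the control (difference −0.18, SE 0.041, limma adjusted p = 0.0503). St3gal4 (10592084) had 9.26, 9.28 and 9.34 with the Grhl2 shRNA, against 9.48 and 9.47 with the control (difference −0.19, SE 0.044, limma adjusted p = 0.055). St3gal3 (10515574) was more spread, at 8.25, 8.21 and 8.41 with the Grhl2 shRNA, against 8.51 and 8.58 with the control (SE 0.067, limma adjusted p = 0.073). These 3 enzymes act mainly on lactosamine chains, and a difference by substrate was not tested. The enzymes of O-glycans, St3gal1 (10429160) and St3gal2 (10575534), were at −0.05 and −0.08, with 95% confidence intervals that included 0. A second, dimmer probe set of St3gal1 (10429176) was at −0.03, and its groups overlapped. The number of St3gal calls ranged from 0 to 4 over the settings tried, with 4 under the trended robust prior.

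Enzymes that place sialic acid elsewhere lay on both sides of 0. St6gal1 (10434758), which caps N-glycans, was at −0.11 (limma adjusted p = 0.19). St6galnac3 (10502890) and St6galnac4 (10471457), which act on GalNAc of sialylated chains, were at 0.16 and 0.10 (limma adjusted p = 0.11 and 0.24). St6galnac2 and St6galnac6 were at 0.005 and −0.02. St6gal2, St6galnac1 and St6galnac5 were under the filter.

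**Figure D3:**
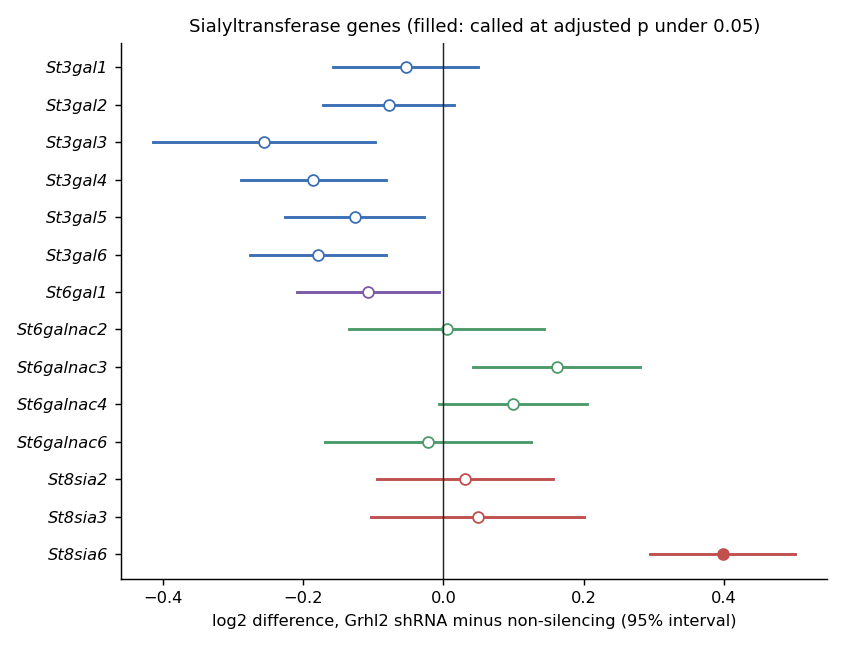
Log2 difference, Grhl2 shRNA minus non-silencing, with its 95% confidence interval from limma, for the 14 sialyltransferase genes in the fit, coloured by enzyme family. The 6 St3gal genes lie left of 0 with open symbols (not called), and St8sia6, the filled symbol, lies at 0.40.

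Of 7 fucosyltransferase genes, 5 were in the fit. Fut2 (10563350), the secretor enzyme that makes the H antigen on epithelial surfaces, fell by 0.29 (SE 0.045, limma adjusted p = 0.019). Its values were 8.48, 8.53 and 8.55 with the Grhl2 shRNA, against 8.84 and 8.78 with the control. The groups were separate on every array, and the call was lost without either control array or without Grhl2 shRNA replicate 2. The adjacent fucosyltransferase gene Sec1, which the naming rule does not take in, was at −0.16 (limma adjusted p = 0.10), and Ntn5, the gene after it, fell by 0.30 (SE 0.048, limma adjusted p = 0.019). On the other side of Fut2, Mamstr and Rasip1 were at 0.12 and 0.02 (limma adjusted p = 0.43 and 0.84). Fut8 (10396712), which adds the core fucose of N-glycans, was at 10.15, 10.16 and 10.22 with the Grhl2 shRNA, against 10.32 and 10.32 with the control, a difference of −0.14 (limma adjusted p = 0.10). Fut11 (10413008) was at −0.15 (limma adjusted p = 0.16), and its second, dimmer probe set at −0.08. Fut10 and Fut7 were at 0.04 and −0.02, and Fut4 and Fut9, enzymes of the Lewis x antigen, were under the filter.

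Just inside the filter, at a mean over the 5 arrays of 4.22, stood Galnt6 at 4.30 and St8sia3 at 4.31. Just outside stood Galnt17 at 4.17 and Galntl6 at 4.11. Of the 21 genes under the filter, B3galt5 had the largest absolute difference.

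The supply and handling of sugars were followed with 7 lists of other glycan genes. Of all genes tested, 2.86% were called higher and 3.52% lower, the background for the counts of calls in these lists. Of 23 genes of sugar nucleotide supply, 1 fell and 22 did not pass, with a median of 0.01. Gmppa (10347639), a regulator of GDP-mannose synthesis, averaged 8.98 ± 0.02 (SD, n = 3) with the Grhl2 shRNA and 9.24 ± 0.08 (SD, n = 2) with the control. It fell by 0.26 (SE 0.048, limma adjusted p = 0.029), a call that was lost whichever array was left out (limma adjusted p 0.062 to 0.15). The sialic acid synthesis genes Gne, Nans and Cmas, chosen after their values were seen, were at 0.25, 0.14 and 0.12 (limma adjusted p = 0.063, 0.097 and 0.16). None of 15 Golgi transporters of sugar nucleotides was called by limma. An unadjusted limma p under 0.05 was found for 4 of the 15, against 3456 of all 14979 genes. Slc35d3 had the largest difference of the 15 at 0.15 (limma adjusted p = 0.36).

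Other Golgi enzymes that build glycans gave 1 rise, 1 fall and 26 genes that did not pass. Chst1 (10474045), a sulfotransferase that acts on galactose of keratan sulfate, rose by 0.59 (SE 0.074, limma adjusted p = 0.010). Its values were 7.61, 7.50 and 7.48 with the Grhl2 shRNA, against 7.05 and 6.83 with the control. Every Grhl2 shRNA array was above both control arrays, but the call was lost without control replicate 2 (limma adjusted p = 0.057). Chst2 (10595718), which puts sulfate on GlcNAc, fell by 0.20 (SE 0.042, limma adjusted p = 0.041), and that call was lost whichever array was left out (limma adjusted p 0.072 to 0.19). C1galt1 and its chaperone C1galt1c1, which make the step after the Galnt enzymes, were at −0.05 and −0.01 (limma adjusted p = 0.63 and 0.97).

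N-glycan transfer and trimming had 0 calls by limma in 18 genes. An unadjusted limma p under 0.05 was found for 3 of the 18, against 3456 of all 14979 genes. Edem2 had the largest difference of the 18 at −0.15 (limma adjusted p = 0.14). The Golgi retention and COG complex list had 0 calls by limma in 21 genes, with 2 at an unadjusted p under 0.05. Golph3l, a relative of the Golgi protein that retains glycosyltransferases, was at −0.15 (limma adjusted p = 0.084). Of 14 glycan-degrading hydrolases, Aga (10571774), a lysosomal enzyme of N-glycan breakdown, fell by 0.19 (SE 0.042, limma adjusted p = 0.043) and 13 did not pass. The Aga call was lost whichever array was left out (limma adjusted p 0.087 to 0.21). That list's median of −0.06 was the lowest of the 7.

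Of 16 mucins, mucin-like proteins and lectins, 2 rose and 14 did not pass, with a median of −0.003. Calls higher made up 2.86% of all genes tested. Lgals1 (10425161), galectin-1, which binds galactose on branched chains, had values of 8.93, 8.99 and 8.95 with the Grhl2 shRNA, against 8.40 and 8.27 with the control. The groups were far apart, and the rise was 0.62 (SE 0.052, limma adjusted p = 0.0042), which held whichever array was left out. Podxl (10543791), the sialomucin podocalyxin, rose by 0.20 (SE 0.043, limma adjusted p = 0.044), a call that was lost whichever array was left out. Lgals3, Muc1 and Muc4, chosen after their values were seen, were at −0.16, −0.18 and −0.23 (limma adjusted p = 0.13, 0.18 and 0.078).

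**Figure D4:**
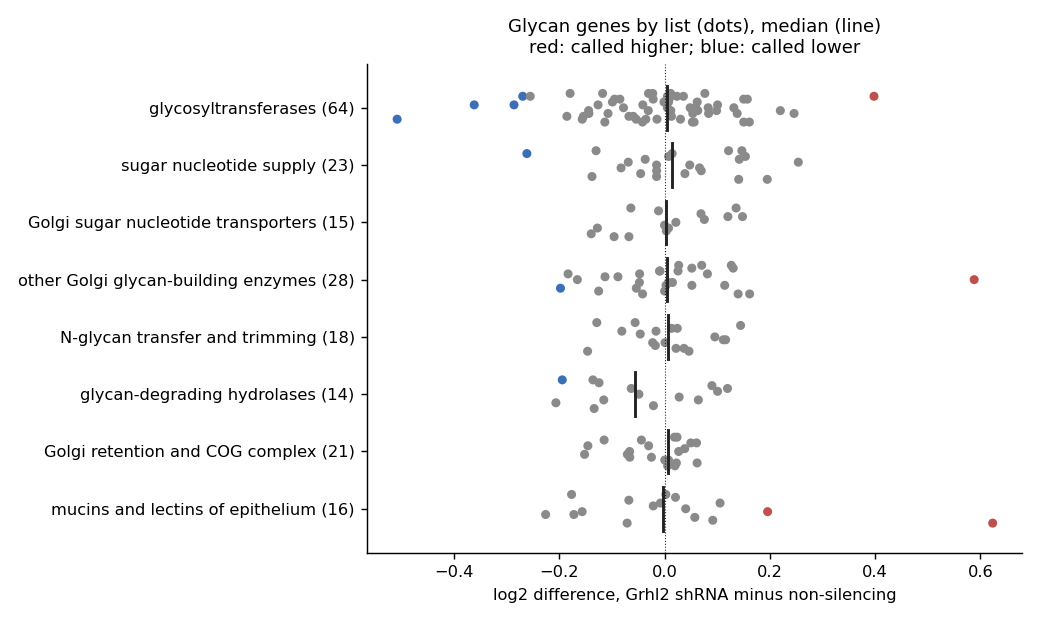
Log2 difference, Grhl2 shRNA minus non-silencing, of each tested gene (dot) in the family without B4galnt2 and Galntl5 and in 7 other glycan lists, with the list median as a line and the number of genes in brackets. Medians lie between −0.06 and 0.01, and the called genes at the right edge are Lgals1 (0.62), Chst1 (0.59) and St8sia6 (0.40).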

How the data were processed

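Deposited was 1 table of log2 values. Per the submitters' processing notes, the authors ran RMA within Affymetrix Expression Console. The method corrects background, equalises array distributions and summarises each probe set. No source used here names versions or probe annotation, and the log2 base was taken from the method and the range of values. Of 34760 probe sets, 21640 carried 1 platform symbol, 1321 several and 11799 none listed; all 91 member rows were matched by Entrez ID to RefSeq (GRCm38.p6).

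Single-symbol probe sets with a mean below 4.22, their 25th percentile, were left out, and the brightest probe set stood for a gene. The 2 groups were tested two-sided in limma 3.58.1 (R 4.3.3; lmFit, then eBayes) with Benjamini-Hochberg adjustment over all 14979 genes. Precision is limited by the number of arrays, which leave 3 residual degrees of freedom. The test was checked on simulated arrays. Their noise was independent and drawn from the variance model of the test, so effects shared across an array were not covered.

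The members, lists and alternatives were chosen with earlier results of these data known. Named are Grhl2, B4galnt2, Galntl5, all called members, the largest difference in roles without a call, members whose probe sets disagree in sign, up to 4 called genes per list (or the largest difference) and the genes said to be chosen after their values were seen. Members and neighbours beyond these are given to complete each role. A planned comparison of protein sequences was not run. Replicate numbers do not pair the samples in the labels. Alternatives covered the filter, normalization, probe set choice, variance prior, array weights, replicate block, threshold and each array left out.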

Additional observations from a re-analysis of the deposited data

How the results depend on the processing

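The limits are 3 against 2 arrays, 1 hairpin and no measure of signal over background. The directions of B4galnt2, Galntl5, the 5 called members, Galnt12, Mgat5 and B4galt5 held under every setting in which they were fitted, while the calls moved; other members were not followed one by one. Members called numbered 11 with the filter at the 50th percentile, 14 with a trended robust prior, 12 at an adjusted p under 0.1, 8 with array weights, 1 with no moderation and 1 to 5 with an array left out. The 11 included 4 of the 5 main calls; B4galnt1 was below that filter. Genome-wide, 956 calls became 1708, 2034, 1851 and 9 under the filter at the 50th percentile, the trended prior, the looser threshold and no moderation, 418 with no filter and 67 to 493 with an array left out. The cause of these shifts was not tested. With the replicate number as a block, 2 members (B3gnt5 and St8sia6) and 172 genes were called; deviations of same-numbered arrays correlated at 0.057 and 0.019, and no label ties the numbers. In the lists, the 50th percentile filter gave 4 calls in sugar supply, 4 in other Golgi enzymes, 2 in hydrolases and 1 in the COG list. The trended prior gave 4, 4, 1 and 1, with 2 in N-glycan trimming and 4 in mucins and lectins, and the looser threshold gave 4, 4, 2 and 1. Array weights gave 2 in sugar supply and 2 in hydrolases. No filter and the block gave the same counts, 0 in sugar supply and hydrolases and 1 in other Golgi enzymes and mucins. No moderation gave 0 in all lists. With an array left out, the counts were 0 to 1 in sugar supply and other Golgi enzymes, 0 in hydrolases and 1 in mucins and lectins; the 1 in sugar supply, without Grhl2 shRNA replicate 1, was a gene that rose, not Gmppa. The Grhl2 difference of −0.2352 passed under the 50th percentile filter (limma adjusted p = 0.032), the trended prior (limma adjusted p = 0.023), the looser threshold and without Grhl2 shRNA replicate 3 (limma adjusted p = 0.047), and ran from −0.2915 to −0.1905 with an array left out.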
